A study of Mus musculus with 12 samples.

Results

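Podocyte genes were followed here through 8 transcripts, Nphs1, Podxl, Wt1, Synpo, Cdkn1c, Ptpro, Magi2 and Tcf21, out of 23183 genes listed for every library. They were taken as a named set of genes known from the podocyte, and all 8 passed the filter on low values together with 13243 genes in all. Podocytes are the epithelial cells that wrap the capillaries of the glomerulus with interlocking foot processes. The slit diaphragm between neighbouring foot processes, the glomerular basement membrane beneath them and the actin skeleton inside them hold back plasma protein during filtration. Loss of the slit diaphragm proteins or of the transcription factors that maintain the cell is a known route to proteinuria.

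The libraries were made from kidney cortex of male C57BL/6N mice, 6 to 7 weeks old at surgery, on day 7 after unilateral ureteral obstruction (UUO), in which the ureter of one kidney is tied so that tubules dilate and the interstitium scars. The kidney of the other side (CL) served as the control. Wild-type mice (Acot12+/+) were compared with Acot12-/- mice, which carry in the germline, in all tissues, a mutant allele induced with an RNA-guided endonuclease in the gene for an acyl-CoA thioesterase. The 12 libraries fell into 4 groups of 3: Acot12+/+ CL, Acot12+/+ UUO, Acot12-/- CL and Acot12-/- UUO. All 4 groups came from operated animals, and no kidney of an unoperated mouse was analysed here. Separate animals behind the replicate numbers are not stated in the labels, and p-values therefore measure the spread between these libraries.

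Acot12 itself was at 52.7 to 78.1 FPKM (fragments per kilobase, scaled by depth) in Acot12+/+ CL and at 6.80 to 9.15 FPKM in Acot12-/- CL, and at 9.98 to 21.2 FPKM against 1.80 to 3.86 FPKM in the UUO kidneys. The transcript was thus lower in every Acot12-/- library than in every wild-type library of the same side, without being at 0. Depth, estimated from the steps between low values, was 12420000 to 16130000 fragments in CL and 18540000 to 23000000 in UUO libraries. The sum of all FPKM values was 799670 to 977981 in CL and 491078 to 686425 in UUO libraries. Acot12-/- CL replicate 2 stood apart from its group on the second principal component, at -52.3 against 22.2 and 33.0, and values without it are given where they change a call.

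The members spanned a wide range of levels per transcript length. In Acot12+/+ CL the order of mean levels was Podxl (32.4 FPKM), Cdkn1c (18.5), Tcf21 (17.8), Synpo (12.1), Ptpro (3.84), Nphs1 (3.15), Wt1 (2.40) and Magi2 (1.44). Podxl lay above all others in every library of that group. Cdkn1c and Tcf21, Tcf21 and Synpo, Ptpro and Nphs1, and Nphs1 and Wt1 overlapped as neighbours in this order, whereas Synpo and Ptpro, and Wt1 and Magi2, did not. In Acot12+/+ UUO the order began with Tcf21 (41.2 FPKM), followed by Podxl (28.8), which overlapped with it, and by Synpo (18.0) and Cdkn1c (14.5). In Acot12-/- UUO the mean of Tcf21 was 56.1 FPKM and its lowest library, at 48.1 FPKM, was above the highest Podxl value, 39.3 FPKM. The least abundant members rested on few reads: about 83 fragments stood behind the lowest Wt1 value and about 108 behind the lowest Magi2 value, against about 2036 for the lowest Podxl value.

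**Figure D1:**
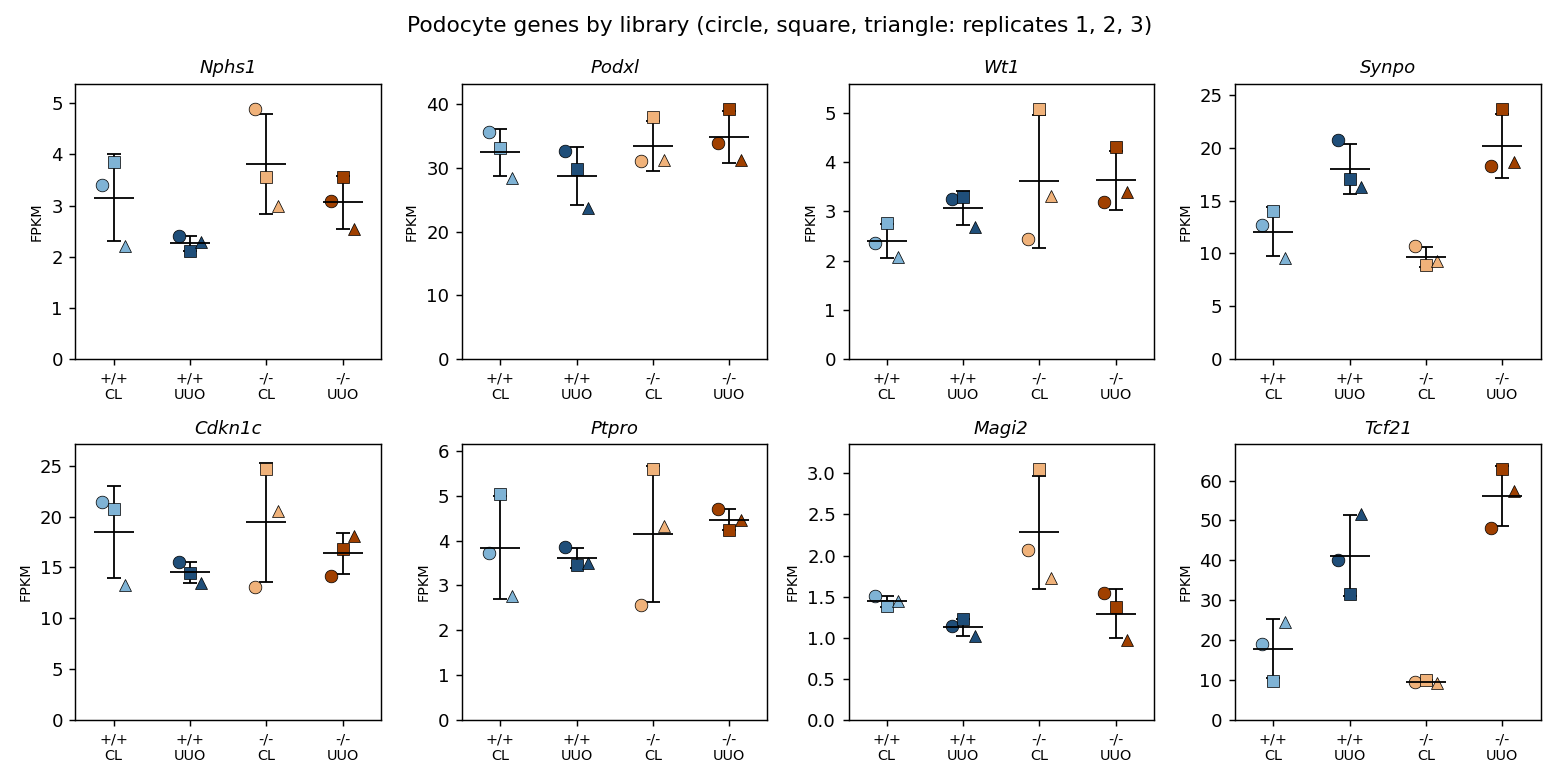
FPKM of the 8 podocyte genes in each of the 12 libraries, by genotype (+/+ or -/-) and kidney (CL or UUO). Symbols are replicates 1, 2 and 3, the long bar is the group mean and the whiskers are 1 SD. Tcf21 and Synpo lie higher in every UUO library than in every CL library, Magi2 lies lower within each genotype, and the other 5 members overlap between kidneys in both genotypes.

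The question of the first comparisons was what obstruction did to these transcripts in each genotype. Tested by limma on log2(FPKM + 1) with Benjamini-Hochberg adjustment over 13243 genes and a threshold of 0.05, 2 of 8 members changed in Acot12+/+ mice, Tcf21 and Synpo, both higher. Of all genes tested in that comparison, 47.5% were called, 23.6% higher and 23.9% lower. In Acot12-/- mice 3 of 8 were called, Tcf21 and Synpo higher and Magi2 lower, against 53.7% of all genes, 26.6% higher and 27.2% lower. Over both genotypes together the same 3 members were called, against 63.4% of all genes, 31.3% higher and 32.1% lower. The median log2 difference of the 8 members was -0.11 in Acot12+/+, 0.05 in Acot12-/- and -0.01 over both, beside 0.01, -0.01 and 0.00 for all genes. With only 8 members, these counts were not tested against the shares of all genes, and nothing is concluded from them about the set. When every library was instead scaled to an equal sum of FPKM, the median of all genes moved to 0.62 in Acot12+/+ and 0.45 in Acot12-/-, and the calls over all genes went from 49.7% to 87.6% higher in Acot12+/+ and from 49.5% to 79.7% higher in Acot12-/-. In that scaling 5 of 8 members were called in Acot12+/+ and 4 of 8 in Acot12-/-, all higher, where 64% and 57.6% of all genes were called and 56.1% and 45.9% were called higher. Kidney cortex was sequenced in bulk, so that fewer podocytes and less RNA per podocyte cannot be told apart in any of these values.

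**Figure D2:**
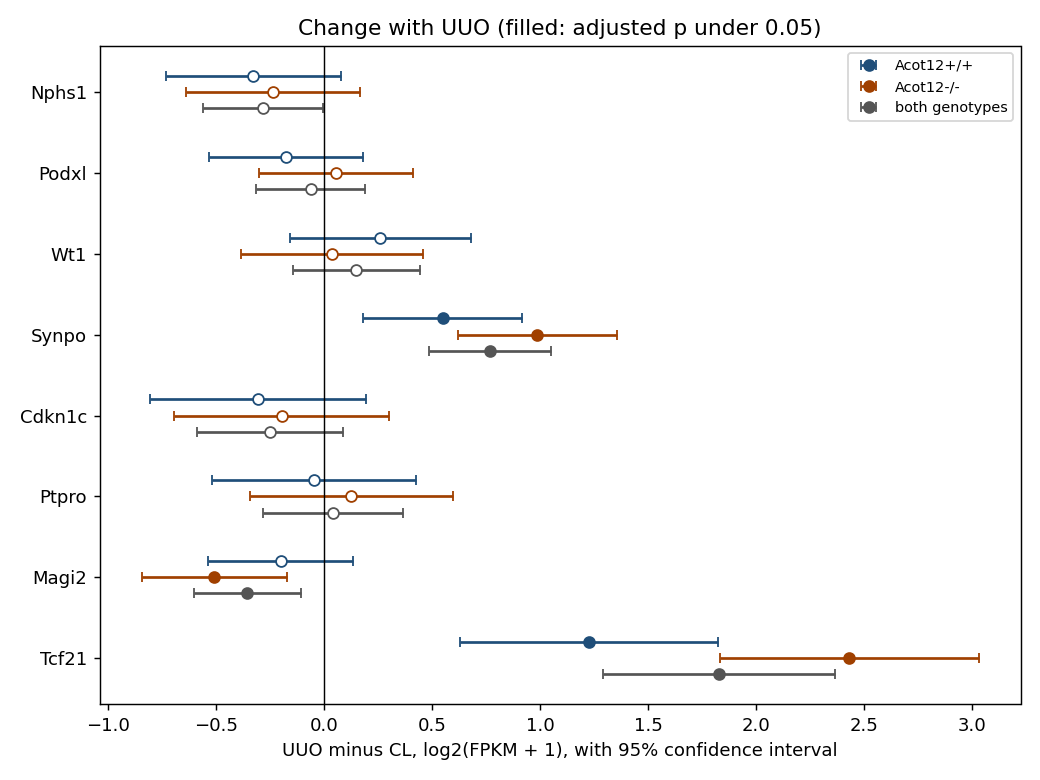
Difference between UUO and CL kidneys in log2(FPKM + 1) for each podocyte gene, in Acot12+/+ mice, in Acot12-/- mice and over both. Whiskers are 95% confidence intervals from limma and filled symbols have an adjusted p under 0.05. Tcf21 and Synpo lie to the right of 0 in all 3 comparisons, and the intervals of Podxl, Wt1, Cdkn1c and Ptpro include 0 in all 3.

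Among the slit diaphragm genes, Nphs1 encodes nephrin, the adhesion protein that bridges neighbouring foot processes. Nphs1 was at 3.40, 3.86 and 2.20 FPKM in Acot12+/+ CL replicates 1, 2 and 3 and at 2.40, 2.11 and 2.29 FPKM in Acot12+/+ UUO. In Acot12-/- mice it was at 4.89, 3.56 and 2.99 FPKM in CL and at 3.09, 3.57 and 2.53 FPKM in UUO. The obstructed means were the lower ones in both genotypes, but the libraries overlapped in both, and Acot12+/+ CL replicate 3 lay among the obstructed values. The log2 difference was -0.33 (95% CI -0.73 to 0.08, limma adjusted p = 0.167) in Acot12+/+ and -0.23 (-0.64 to 0.17, adjusted p = 0.306) in Acot12-/-. Over both genotypes it was -0.28 (adjusted p = 0.0720), which did not pass the threshold. Without Acot12+/+ CL replicate 3 it was -0.50 (adjusted p = 0.0485) in Acot12+/+, so that 1 library decided that call. Over both genotypes it was -0.35 (adjusted p = 0.0272) without that library and -0.34 (adjusted p = 0.0326) without Acot12-/- CL replicate 3. An antisense gene, Nphs1os, overlaps Nphs1 and was at 0.147 FPKM at most, and whether the counting used the strand is not given in the sources used here.

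Magi2 encodes a scaffold protein that anchors nephrin inside the foot process. It was at 1.51, 1.38 and 1.44 FPKM in Acot12+/+ CL and at 1.14, 1.23 and 1.02 FPKM in Acot12+/+ UUO. In the knockout it was at 2.07, 3.05 and 1.73 FPKM in CL and at 1.54, 1.37 and 0.966 FPKM in UUO. In each genotype the highest UUO value stayed under the lowest CL value. The log2 difference was -0.20 (95% CI -0.54 to 0.14, limma adjusted p = 0.308) in Acot12+/+, -0.51 (-0.84 to -0.17, adjusted p = 0.0153) in Acot12-/- and -0.35 (-0.60 to -0.10, adjusted p = 0.0163) over both. The Acot12-/- call was lost when only the 2 groups compared entered the fit (adjusted p = 0.0734) and without Acot12-/- UUO replicate 3 (-0.40, adjusted p = 0.0672). Without Acot12-/- CL replicate 2, which held the highest value, the difference was -0.35 (adjusted p = 0.0388). Under equal sums of FPKM the Acot12-/- value was -0.16 (adjusted p = 0.499), or -0.61 relative to the median of all genes, and the value over both genotypes turned to 0.03, or -0.51 relative to that median. Because these levels are close to the pseudocount of 1, the log2 differences understate the ratio of the FPKM values.

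Ptpro encodes a receptor tyrosine phosphatase of the foot process surface. It was at 3.72, 5.05 and 2.76 FPKM in Acot12+/+ CL and at 3.86, 3.45 and 3.51 FPKM in Acot12+/+ UUO. In Acot12-/- mice it was at 2.57, 5.59 and 4.32 FPKM in CL and at 4.71, 4.23 and 4.47 FPKM in UUO. The CL libraries were widely spread, with an SD of 1.15 and 1.52 FPKM, and the UUO libraries, with an SD of 0.220 and 0.240 FPKM, lay inside their range in both genotypes. The log2 difference over both genotypes was 0.04 (95% CI -0.28 to 0.36, limma adjusted p = 0.826).

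Podxl encodes podocalyxin, the charged sialoprotein of the podocyte surface, which endothelium also makes. It was at 35.7, 33.2 and 28.5 FPKM in Acot12+/+ CL and at 32.7, 29.8 and 23.7 FPKM in Acot12+/+ UUO. In the knockout it was at 31.2, 37.9 and 31.2 FPKM in CL and at 33.9, 39.3 and 31.3 FPKM in UUO. Taken by replicate number, the ratio of UUO to CL was 0.916, 0.899 and 0.834 in Acot12+/+ and 1.09, 1.04 and 1.00 in Acot12-/-. The difference between the genotypes in this response did not pass the test (0.23 on the log2 scale, 95% CI -0.27 to 0.73, limma adjusted p = 0.852). The log2 difference over both genotypes was -0.06 (95% CI -0.31 to 0.19, adjusted p = 0.675), an interval that leaves room for a fall of up to 0.31 and a rise of up to 0.19.

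Synpo encodes synaptopodin, an actin-associated protein of the foot processes that is also found outside the glomerulus. It was at 12.7, 14.0 and 9.55 FPKM in Acot12+/+ CL and at 20.7, 17.1 and 16.3 FPKM in Acot12+/+ UUO. In Acot12-/- mice it was at 10.7, 8.94 and 9.29 FPKM in CL and at 18.3, 23.7 and 18.7 FPKM in UUO. Every obstructed library exceeded every CL library, across genotypes as well as within them. The log2 difference was 0.55 (95% CI 0.18 to 0.92, limma adjusted p = 0.0183) in Acot12+/+, 0.99 (0.62 to 1.36, adjusted p = 0.000401) in Acot12-/- and 0.77 (0.49 to 1.05, adjusted p = 0.000186) over both. The Acot12+/+ call was lost without Acot12+/+ UUO replicate 1 (adjusted p = 0.0849) and without Acot12+/+ CL replicate 3 (adjusted p = 0.0880). The larger difference in Acot12-/- was not separable from that in Acot12+/+ (interaction 0.44, 95% CI -0.08 to 0.96, adjusted p = 0.590).

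Wt1 encodes the zinc finger factor that maintains the podocyte program and also marks parietal cells of Bowman's capsule. It was at 2.35, 2.77 and 2.08 FPKM in Acot12+/+ CL and at 3.25, 3.29 and 2.68 FPKM in Acot12+/+ UUO. In the knockout it was at 2.43, 5.08 and 3.31 FPKM in CL and at 3.19, 4.30 and 3.38 FPKM in UUO. The groups overlapped in both genotypes, and the widest group was Acot12-/- CL (SD 1.35 FPKM), because of replicate 2. The log2 difference was 0.26 (95% CI -0.16 to 0.68, limma adjusted p = 0.283) in Acot12+/+, 0.04 (-0.38 to 0.46, adjusted p = 0.881) in Acot12-/- and 0.15 (-0.14 to 0.44, adjusted p = 0.351) over both. Without Acot12-/- CL replicate 2 the value over both genotypes was 0.26 (adjusted p = 0.0364).

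Cdkn1c encodes p57, the cyclin-dependent kinase inhibitor that keeps podocytes out of the cell cycle. It was at 21.4, 20.8 and 13.3 FPKM in Acot12+/+ CL and at 15.6, 14.5 and 13.5 FPKM in Acot12+/+ UUO. In Acot12-/- mice it was at 13.1, 24.6 and 20.5 FPKM in CL and at 14.2, 16.8 and 18.1 FPKM in UUO. In each genotype 1 CL library lay below all 3 obstructed libraries and the other two lay above them. The log2 difference was -0.30 (95% CI -0.80 to 0.19, limma adjusted p = 0.294) in Acot12+/+, -0.20 (-0.69 to 0.30, adjusted p = 0.497) in Acot12-/- and -0.25 (-0.59 to 0.09, adjusted p = 0.179) over both. Without Acot12-/- CL replicate 1 the last of these was -0.37 (adjusted p = 0.0320).

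Tcf21, the basic helix-loop-helix factor needed for glomerular development, was the member with the largest difference. It is made by podocytes and, in kidney and other organs, also by stromal cells that give rise to fibroblasts. Tcf21 was at 19.1, 9.79 and 24.5 FPKM in Acot12+/+ CL and at 40.1, 31.6 and 51.7 FPKM in Acot12+/+ UUO. In the knockout it was at 9.46, 10.02 and 9.12 FPKM in CL and at 48.1, 62.8 and 57.5 FPKM in UUO. Every obstructed library exceeded every CL library, and the 3 Acot12-/- CL libraries were close together with an SD of 0.458 FPKM. By replicate number the ratio of UUO to CL was 2.10, 3.23 and 2.11 in Acot12+/+ and 5.09, 6.26 and 6.31 in Acot12-/-. The log2 difference was 1.23 (95% CI 0.63 to 1.82, limma adjusted p = 0.00320) in Acot12+/+, 2.43 (1.83 to 3.03, adjusted p = 2.16e-05) in Acot12-/- and 1.83 (1.29 to 2.37, adjusted p = 2.75e-05) over both. The interaction was 1.21 (SE 0.39, unadjusted p = 0.00902, adjusted p = 0.236 by limma) and did not pass the test over all genes.

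Markers of fibroblasts and myofibroblasts were, like Tcf21, higher in UUO than in CL kidneys. All 8 genes of that list were called higher with UUO over both genotypes, beside 31.3% of all genes, with a median log2 difference of 2.11. Their summed level was 135 to 178 FPKM in Acot12+/+ CL, 437 to 581 FPKM in Acot12+/+ UUO, 53.1 to 86.5 FPKM in Acot12-/- CL and 394 to 531 FPKM in Acot12-/- UUO. Pdgfra, a receptor that marks kidney fibroblasts, was at 3.94 ± 0.696, 6.75 ± 1.93, 1.69 ± 1.15 and 6.65 ± 1.10 FPKM (SD, n = 3) in the same order of groups. No library had a marker sum between 178 and 394 FPKM, and the Acot12-/- CL group was lowest in both Tcf21 mean and marker sum. The library highest in Tcf21 was also highest in marker sum in Acot12+/+ UUO and Acot12-/- CL, but not in Acot12-/- UUO. In Acot12+/+ CL the order was reversed, and replicate 3 was highest in Tcf21 and lowest in marker sum. Between genotypes in UUO the median of the markers was -0.10, beside 0.46 for Tcf21. The part of fibroblasts in the Tcf21 values was not tested. Macrophage markers also were 8 of 8 higher over both genotypes (median 2.31), and parietal epithelial markers 4 of 4 (median 3.50). Of these 4, Vcam1 is also on the injured tubule list (median 5.08), and in bulk cortex none of the 4 rises can be assigned to parietal cells.

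**Figure D3:**
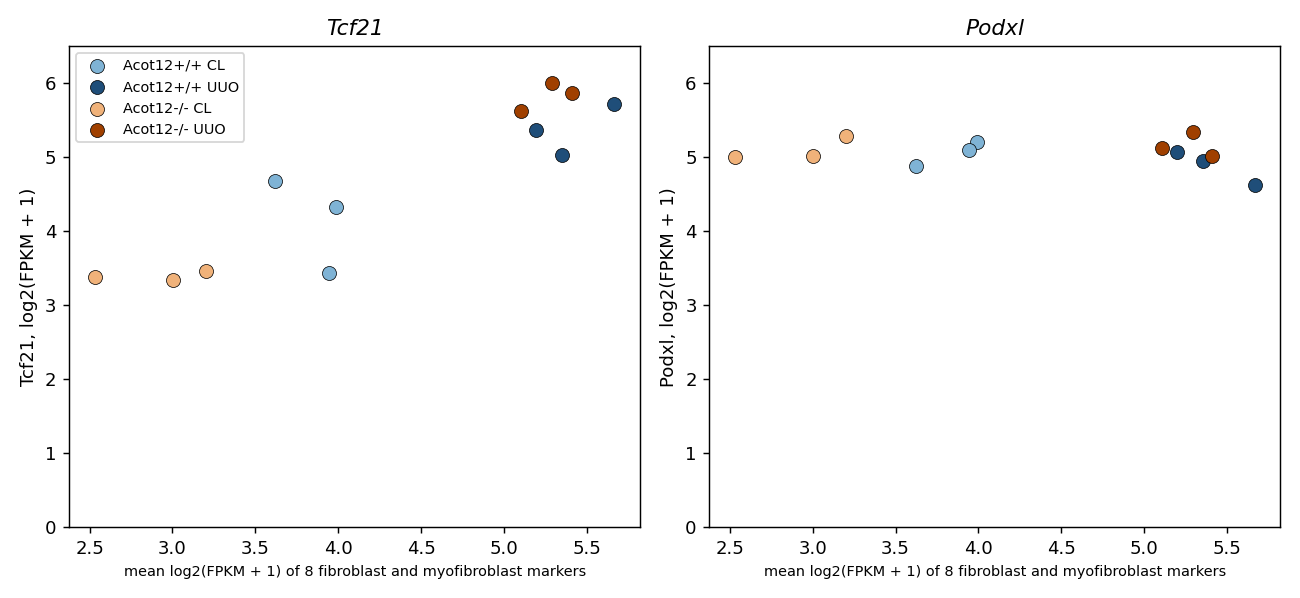
Level of Tcf21 (left) and of Podxl (right), in log2(FPKM + 1), against the mean log2(FPKM + 1) of 8 fibroblast and myofibroblast markers, 1 point per library, coloured by group. The UUO libraries lie to the right in both panels. Tcf21 is higher there in every library, while Podxl stays between 23.7 and 39.3 FPKM on both sides.

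Upstream stretches of 3 members are shown to set a member that was higher with UUO, Tcf21, beside Magi2, which was lower in the UUO than in the CL kidneys of Acot12-/- mice, and one that passed no test, Ptpro. They come from RefSeq (GRCm38.p6), 5′ to 3′ on the strand of the gene, and end before the transcription start, leaving out bases that GENCODE places in an exon. Of the 8 members 4 were matched in that table, by 5 entries. Capitals mark the letters CANNTG, the E-box that basic helix-loop-helix factors such as Tcf21 bind, which reads the same on both strands. Tcf21 is at chr10:22820175-22820393 (minus strand), Ptpro at chr6:137252049-137252298 (plus strand) and Magi2 at chr5:19226796-19227035 (plus strand).
Tcf21: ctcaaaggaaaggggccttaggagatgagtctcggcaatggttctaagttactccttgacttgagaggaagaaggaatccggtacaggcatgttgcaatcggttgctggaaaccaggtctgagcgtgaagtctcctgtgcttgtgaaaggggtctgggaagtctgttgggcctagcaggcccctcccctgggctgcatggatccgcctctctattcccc
Ptpro: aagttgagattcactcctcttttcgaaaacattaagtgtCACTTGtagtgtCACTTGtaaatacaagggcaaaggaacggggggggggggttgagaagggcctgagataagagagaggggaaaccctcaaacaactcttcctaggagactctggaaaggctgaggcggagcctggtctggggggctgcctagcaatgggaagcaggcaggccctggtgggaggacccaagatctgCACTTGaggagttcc
Magi2: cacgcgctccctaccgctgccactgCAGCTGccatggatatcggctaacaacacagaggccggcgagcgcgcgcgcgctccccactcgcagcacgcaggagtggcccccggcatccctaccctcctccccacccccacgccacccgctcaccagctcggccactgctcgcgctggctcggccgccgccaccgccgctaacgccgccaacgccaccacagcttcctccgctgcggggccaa
The Tcf21 stretch of 219 bases held no CANNTG. Ptpro held 3, all of them CACTTG, starting 211, 199 and 15 bases before the start, and Magi2 held 1, CAGCTG, starting 225 bases before it. A second RefSeq entry of Magi2, at chr5:19907268-19907517 inside the gene body, is not printed and held 1, CACCTG, starting 47 bases before its own start. Of 32851 RefSeq windows of 250 bases upstream of a start, 66.2% held at least 1 CANNTG. A match of letters is a description and not a binding site, and no binding was measured here. The gene bodies, in GRCm38 coordinates of GENCODE, are chr7:30458315-30487223 for Nphs1, chr6:31519488-31563981 for Podxl, chr2:105126529-105173616 for Wt1, chr7:143458339-143461050 for Cdkn1c, chr6:137252319-137463233 for Ptpro, chr5:19227036-20704792 for Magi2 and chr10:22817281-22820174 for Tcf21.

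The second question was whether loss of Acot12 altered the podocyte genes. In UUO kidneys none of the 8 members was called between genotypes by limma, none had an unadjusted p under 0.05, and 2 of all genes (0.0151%) were called. All 8 differences were above 0, from 0.10 for Magi2 (95% CI -0.24 to 0.44) to 0.46 for Tcf21 (-0.14 to 1.05), and their median was 0.21 beside 0.00 for all genes. The sign of Synpo and Cdkn1c turned under equal sums of FPKM, where both were within 0.01 of 0. These intervals leave room for differences of either sign for every member.

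In CL kidneys none of the 8 members passed the adjusted test by limma, 2 had an unadjusted p under 0.05, and 4.48% of all genes were called, 1.12% higher and 3.36% lower. Tcf21 was 17.8 ± 7.44 FPKM in Acot12+/+ and 9.53 ± 0.458 FPKM in Acot12-/- (SD, n = 3), and 1 wild-type library, at 9.79 FPKM, lay within the Acot12-/- range. The log2 difference of Tcf21 was -0.75 (95% CI -1.35 to -0.15, limma adjusted p = 0.167), and without that wild-type library, replicate 2, it was -1.11 (adjusted p = 0.0299). Without Acot12+/+ CL replicate 3, the highest wild-type library, it was -0.48 (adjusted p = 0.439). Magi2 was 1.44 ± 0.0640 FPKM in Acot12+/+ and 2.28 ± 0.684 FPKM in Acot12-/-, without overlap, with a log2 difference of 0.41 (95% CI 0.07 to 0.74, adjusted p = 0.185), which was 0.24 (adjusted p = 0.200) without Acot12-/- CL replicate 2. Fibroblast and myofibroblast markers were lower in Acot12-/- CL for 3 of 8 genes (median -0.94), for 1 without Acot12+/+ CL replicate 1 or Acot12-/- CL replicate 1, for 7 without Acot12-/- CL replicate 2 and for 0 with only these 2 groups in the fit, and the part of this in the Tcf21 value was not tested. The number of all genes called in this comparison, 593, was 2918 without Acot12-/- CL replicate 2 and 1 when only these 2 groups entered the fit.

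For the interaction, the difference between the genotypes in the response to UUO, none of the 8 members passed the test by limma, 1 had an unadjusted p under 0.05 (Tcf21) and 0.106% of all genes were called. With the replicate number as a block, 203 of all genes were called in place of 14, and none of them was a member (Tcf21 adjusted p = 0.0953). The genotype comparisons share their libraries with the comparisons of UUO and CL, so that a low Acot12-/- CL value for Tcf21 enters both the CL difference and the response in Acot12-/-.

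Other podocyte genes moved in both directions. Of 51 further genes on 5 lists of the podocyte and its basement membrane, 48 were tested, and 27 were called higher and 10 lower with UUO over both genotypes, with a median log2 difference of 0.42 beside 0.00 for all genes, of which 31.3% were called higher and 32.1% lower. In Acot12+/+ 23 were higher and 7 lower, beside 23.6% and 23.9% of all genes, and in Acot12-/- 23 were higher and 10 lower, beside 26.6% and 27.2%. Kirrel2, Trpc6 and Lmx1b did not pass the filter on low values. Many of these genes are also made by tubular, endothelial or stromal cells of the cortex.

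The slit diaphragm list had 7 of 10 genes higher and 2 lower over both genotypes, beside 31.3% and 32.1% of all genes. The log2 differences of the list ran from -1.29 to 1.37 over both genotypes. Of the genes that rose, Kirrel, the nephrin-related protein Neph1, had a log2 difference of 1.37 and Fyn, the kinase that phosphorylates nephrin, of 1.13 over both genotypes. Pard3, 1 of the 2 lower genes, went from 11.2 ± 1.21 to 9.09 ± 0.592 FPKM in Acot12+/+ (SD, n = 3). In Acot12-/- it went from 14.5 ± 3.01 to 8.91 ± 0.539 FPKM.

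The basement membrane list, with 6 of 10 genes higher and 3 lower over both genotypes (31.3% and 32.1% of all genes), divided by chain. Col4a3, a chain of the collagen IV network that podocytes lay down, was 28.7 ± 2.33 FPKM in Acot12+/+ CL and 10.1 ± 0.639 FPKM in Acot12+/+ UUO, and 30.4 ± 9.54 and 9.65 ± 0.972 FPKM in Acot12-/- (SD, n = 3). Its log2 difference was -1.47 over both genotypes (95% CI -1.77 to -1.16, limma adjusted p = 1.37e-06). Col4a4, its partner chain, was 21.1 ± 0.337 FPKM in Acot12+/+ CL and 9.02 ± 1.10 FPKM in Acot12+/+ UUO. Agrn, which encodes the heparan sulfate proteoglycan agrin, went the other way, from 13.7 ± 0.476 to 56.6 ± 8.59 FPKM in Acot12+/+ and from 14.0 ± 3.07 to 57.7 ± 17.9 FPKM in Acot12-/-. Lama5, the laminin chain of mature basement membranes, differed by 1.77 (limma adjusted p = 3.05e-06) over both genotypes. In Acot12+/+ mice Itga3, the integrin chain that ties podocytes to laminin, differed by 1.63 (limma adjusted p = 0.000198), and the cadherin gene Fat1 of the surface list by 1.59 (adjusted p = 3.05e-05).

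On the actin list 6 of 12 genes were higher and 2 lower over both genotypes, beside 31.3% and 32.1% of all genes. The largest rise there was that of the intermediate filament gene Vim (log2 difference 1.81), which fibroblasts also make. The 2 lower genes were Clic5, at -1.09, a protein of the podocyte foot process, and Arhgap24, at -1.02, a Rac1-regulating protein. Actn4 was at 0.02 (95% CI -0.19 to 0.23). Of 5 tested transcription factors 3 were higher, among them Foxc2 at 0.67 and Foxc1 at 0.34. Of 11 secreted and surface genes 5 were higher and 3 lower, among them Enpep at -1.22, a peptidase also made by the proximal tubule, and Vegfa at -0.59, the growth factor that podocytes and tubules supply to endothelium.

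Between genotypes none of the 48 genes was called in UUO kidneys, and 2 were called lower in Acot12-/- CL, Lamb2 (-0.71, limma adjusted p = 0.0360) and Pla2r1 (-0.62, adjusted p = 0.0329), beside 3.36% of all genes called lower. Both calls were lost with only these 2 groups in the fit, under equal sums of FPKM, and without any one Acot12+/+ CL library, Acot12+/+ UUO replicate 1 or 2, or Acot12-/- CL replicate 1, whereas 5 of the 48 were higher and 5 lower without Acot12-/- CL replicate 2. For comparison, of 10 genes tested on the glomerular endothelial list, 6 were called lower in Acot12-/- CL than in Acot12+/+ CL. The summed level of the 11 genes listed was 60.9 to 96.2 FPKM in Acot12-/- CL against 155 to 233 FPKM in Acot12+/+ CL. Ehd3 and Plat were not among the 6, and Plat was the 1 gene of the 10 with a difference above 0 (0.29). Bulk cortex holds endothelium inside and outside the glomerulus, and these values cannot be assigned to either. With UUO 2 of these 10 genes were higher and 4 lower in Acot12+/+, beside 23.6% and 23.9% of all genes. In Acot12-/- 7 were higher and none lower, beside 26.6% and 27.2% of all genes. The interaction test was passed by none of the 10 (median interaction 0.93). Mesangial and mural cell genes were lower in Acot12-/- CL for 3 of 8 genes. With only the CL groups in the fit none of the genes of either list was called by limma. Without Acot12+/+ CL replicate 3 or Acot12-/- CL replicate 1 the counts were 3 of 10 and 1 of 8, and without Acot12-/- CL replicate 2 they were 8 of 10 and 6 of 8.

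**Figure D4:**
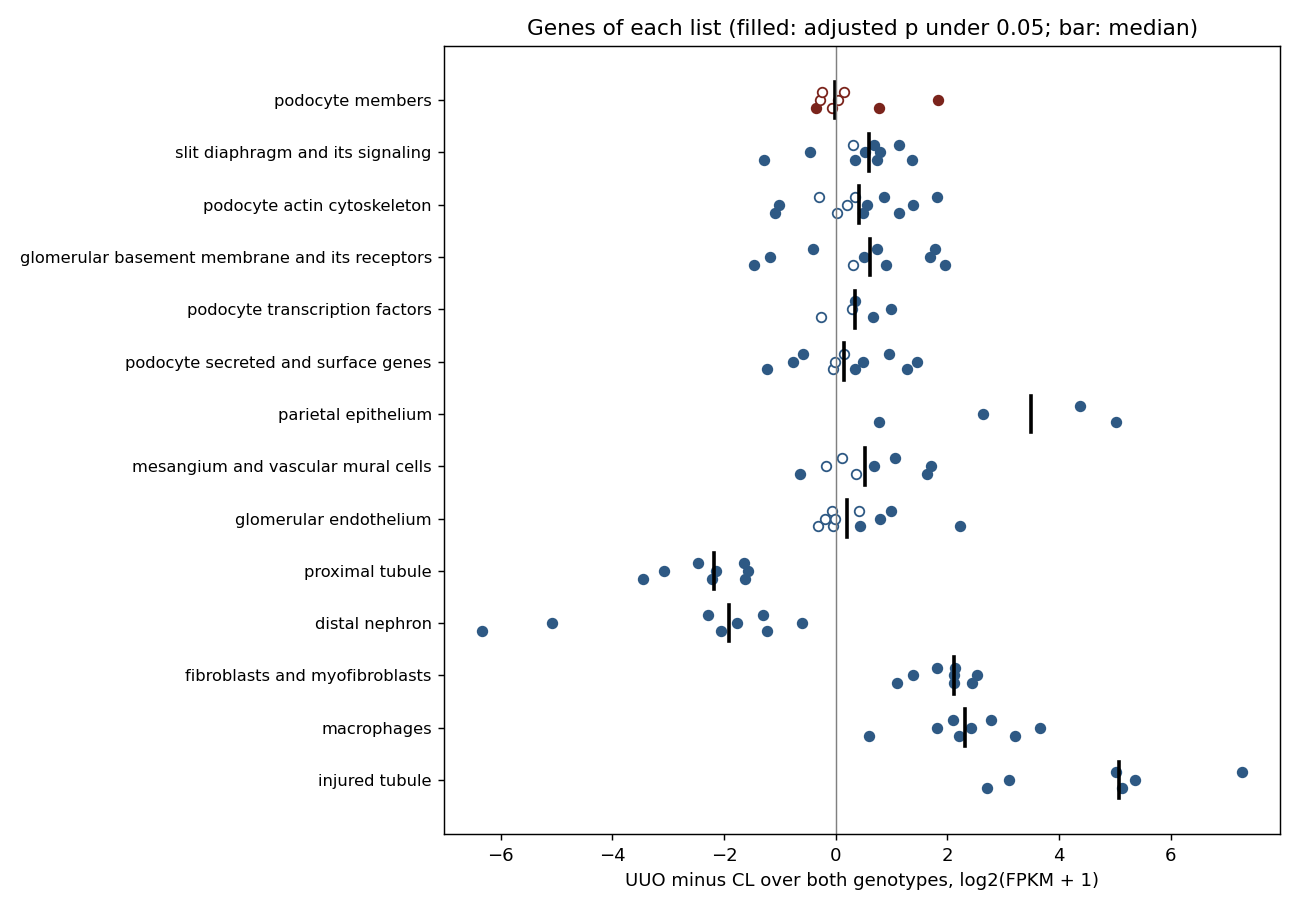
Difference between UUO and CL over both genotypes, in log2(FPKM + 1), for each tested gene of the podocyte set and of 13 lists of other podocyte and kidney cell genes. Filled points have an adjusted p under 0.05, and the black bar is the median of the list. The podocyte set lies around 0 with Tcf21 at 1.83 and Synpo at 0.77, between the tubular lists on the left and the injured tubule, macrophage and fibroblast lists on the right.

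The tubular lists had larger median differences over both genotypes than the podocyte lists. Those of glomerular endothelial genes (0.20) and of mesangial and mural cell genes (0.52) lay within the range of the podocyte lists. All 8 proximal tubule genes fell with UUO over both genotypes (median -2.18), and their summed level went from 1362 to 1914 FPKM in Acot12+/+ CL to 319 to 563 FPKM in Acot12+/+ UUO. All 8 distal nephron genes fell as well (median -1.91), and all 6 injured tubule genes rose (median 5.08). Of all genes 31.3% were called higher and 32.1% lower in that comparison. Whether these differences reflect cell numbers or RNA per cell was not tested, nor was their part in the podocyte values.

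The members did not vary together as one block within groups. Over the 12 libraries, each centred on its group mean, the 28 pairs of members had a median Pearson correlation of 0.19, from -0.48 to 0.86, and 18 were positive. The closest pairs were Cdkn1c with Ptpro (0.86) and Nphs1 with Synpo (0.81), and Wt1 was at 0.79 with Cdkn1c and at 0.78 with Ptpro. Tcf21 was negatively correlated with all 7 others, most of all with Ptpro (-0.48). Without Acot12-/- CL replicate 2 the range was -0.67 to 0.81 with a median of 0.22. The correlation with the mean of the members was highest for Wt1 (0.87) and Podxl (0.84) and was -0.14 for Tcf21. These values describe 12 libraries that share group means and differ in depth, and carry no test.

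The 10 genes whose deviations were most like those of the member mean were Serpini1 (0.98), Rdh9 (0.97), Cdh1 (0.97), Trpm6 (0.97), Pcp4 (0.96), Pdpk1 (0.96), Fer (0.96), Gem (0.95), Clec1a (0.95) and Fem1b (0.95), as Pearson correlations over 12 libraries. Without Acot12-/- CL replicate 2, where the member mean was highest for its group, they lay between 0.90 and 0.97. The genes were not ranked again for that range. They were picked as the highest of all tested genes outside the members over these same 12 libraries. High values follow in part from that picking, and they carry no test.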

How the data were processed

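The authors prepared stranded libraries from total RNA of kidney cortex and deposited 1 table per library with FPKM values per gene. Trimming, mapping and normalization were done by a service company, the authors' processing notes (the submitters' label field) name mm10 and edgeR, and the aligner and the use of strand in counting are not given in the sources used here. From the deposited FPKM values, log2(FPKM + 1) was taken for genes with at least 1 FPKM in at least 3 libraries, leaving out 28 genes listed at 0 beside at least 10 FPKM within a group. The 13243 remaining genes were fitted in 1 limma model over the 4 groups (R 4.3.3, limma 3.58.1, with a variance trend) and p-values were adjusted by Benjamini-Hochberg over all of them, with a threshold of 0.05. The effect of UUO over both genotypes came from an additive model of genotype and kidney. Fold changes on this scale understate changes of low genes.

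The members and all gene lists were chosen with earlier results of these data known. All 8 members are named, and of the other podocyte lists up to 3 called genes per direction and comparison with the largest change, except for genes that are not reported here. The genes Kirrel, Fyn, Pard3, Ehd3, Plat, Clic5, Arhgap24, Actn4, Foxc1, Foxc2 and Vegfa were added after their values were seen. The genes most like the members are the 10 with the highest correlation of deviations from the group means. Depth was estimated from the spacing of low FPKM values and is approximate.

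The script was tested on simulated data for the comparison of UUO and CL in Acot12+/+, where it recovered 51 of 100 genes changed by 1 on the log2 scale and 93 of 100 changed by 2, among 13243 genes, with 7 false calls. Far fewer genes changed there than the 47.5% called in the data, and all had a mean log2(FPKM + 1) above 2, a level that Magi2 did not reach. These rates are therefore not the power of the reported tests. The labels do not say that kidneys of the same number came from the same mouse. The deviations of same-numbered kidneys correlated at 0.13, 0.36 and 0.33 in Acot12+/+ and at 0.32, 0.19 and 0.32 in Acot12-/-. The numbers were therefore treated as pairing the kidneys in an alternative fit. Among kidneys of different numbers, Acot12+/+ CL replicate 2 and UUO replicate 1 were at 0.14 and all others at 0.05 or below. Over the members alone, same-numbered kidneys ranged from -0.61 (Acot12-/- replicate 2) to 0.88 (Acot12-/- replicate 3). Other alternatives were a pseudocount of 0.1, no filter, equal sums of FPKM, median-ratio size factors, keeping the genes listed at 0, no variance trend, only the groups compared, and leaving out each library.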

Additional observations from a re-analysis of the deposited data

How the results depend on the processing

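The replicate block changed no call of a member: 2 members stayed called in Acot12+/+, and the all-gene interaction count of 203 with this pairing is given above. No member call or direction changed with a pseudocount of 0.1, with genes listed at 0 kept, without the variance trend, without the filter, or with median-ratio size factors. Under equal sums of FPKM, 5 members were called in Acot12+/+ and 5 over both genotypes, beside 64% and 72.3% of all genes. There the direction of UUO against CL turned in Acot12+/+ for Nphs1 (0.21), Podxl (0.54), Cdkn1c (0.39), Ptpro (0.54) and Magi2 (0.22), in Acot12-/- for Nphs1 (0.19) and Cdkn1c (0.32), and over both for Nphs1 (0.20), Podxl (0.56), Cdkn1c (0.36) and Magi2 (0.029). Between genotypes in UUO it turned for Synpo (-0.0095) and Cdkn1c (-0.0018), and for the interaction in Nphs1 (-0.023) and Cdkn1c (-0.068). The median of all genes was then 0.62 in Acot12+/+, 0.45 in Acot12-/-, 0.54 over both, -0.15 between genotypes in UUO and -0.17 for the interaction. Relative to it these values had their reported direction, except for Podxl over both genotypes (0.02). With 1 library left out, 1 to 2 members were called in Acot12+/+, 2 to 3 in Acot12-/-, 3 to 4 over both, 0 to 1 between genotypes in CL, and 0 in the other comparisons. Calls over all genes then ran from 4911 to 8177 in Acot12+/+, from 5816 to 8388 in Acot12-/- and from 7807 to 9094 over both. Members whose direction then turned passed no main test and ranged as follows. For UUO against CL, Ptpro went from -0.21 to 0.13 in Acot12+/+, from -0.12 to 0.33 in Acot12-/- and from -0.077 to 0.13 over both. Podxl went from -0.033 to 0.15 in Acot12-/- and from -0.11 to 0.0097 over both, and Wt1 from -0.15 to 0.26 in Acot12-/-. Between genotypes in CL Podxl went from -0.049 to 0.11, Cdkn1c from -0.16 to 0.30 and Ptpro from -0.13 to 0.32. For the interaction Nphs1 went from -0.035 to 0.27, Cdkn1c from -0.14 to 0.32 and Ptpro from -0.070 to 0.37. Calls over all genes for the interaction, 14 in the reported fit, ran from 0 to 899 with 1 library left out, and were 8 without the variance trend and 0 without the filter or under equal sums of FPKM. Those between genotypes in UUO, 2 in the reported fit, ran from 0 to 3 over the alternatives, and those in CL, 593 in the reported fit, from 1 with only the groups compared to 2918, with 187 to 2918 when 1 library was left out and 333 under equal sums of FPKM. Depth limits the least abundant members most, and no interval for counting error was computed.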
